A study of Mus musculus with 20 samples.

Results

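The posterior HoxA genes are the 5' end of the HoxA cluster, and 5 of the 43280 gene symbols in the count tables belong to them: *Hoxa9*, *Hoxa10*, *Hoxa11*, the antisense gene *Hoxa11os* and *Hoxa13*. They were taken by symbol from each count table, and peaks over them were taken from the 4 lists of ATAC-seq peaks. All 5 passed the filter on low counts in the embryonic libraries, and none of the 5 passed it in the adult libraries.

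The study deleted *Eed*, a core subunit of Polycomb Repressive Complex 2 (PRC2), in the mesenchyme of the mouse gut. RNA-seq was done on 12 libraries of sorted GFP+ cells and ATAC-seq on 8 samples, which were pooled by condition into 4 peak lists. The embryonic cells came from the stomach (St) and intestine (Int) at E13.5, in mid-gestation, with 2 RNA libraries for each organ and genotype. The adult libraries, 2 control and 2 *Eed* knockout (KO), came from the intestine. Embryonic controls were Bapx1-cre;Rosa26mTmG and embryonic KO were Eedfl/fl;Bapx1-cre;Rosa26mTmG, so the controls carry the Cre and the reporter too but not the floxed allele. The labels give the strain as C57BL/6, while the study's reporting summary gives mixed backgrounds for the Eedfl and Rosa26mTmG lines. Cre from *Bapx1* acts in the early gut mesenchyme, and the reporter marks the cells that have expressed Cre, and their descendants, with GFP. Adult mice of about 10 weeks are labelled only WT and EED-KO, and by the methods both carried a *Pdgfrβ*-driven, tamoxifen-inducible Cre with the same reporter, the KO also Eedfl/fl. Whether the E13.5 intestine included the hindgut is not given in the sources used here.

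Hox genes encode homeodomain transcription factors that give regional identity along the body axis and along the gut. Genes at the 3' end of a cluster are active at more anterior levels and genes at the 5' end at more posterior levels. PRC2 methylates histone H3 at lysine 27, and Hox clusters are among its best known targets where they are silent. *Hoxa13* is known for its role in the hindgut, limb and genitourinary tract, *Hoxa10* and *Hoxa11* in the limb, kidney and uterus, and *Hoxa9* also in blood cells.

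The genes lie side by side on chromosome 6 of mm10. In the deposited gene models *Hoxa9* spans chr6:52223100-52231089, *Hoxa10* chr6:52231197-52240854, *Hoxa11* chr6:52242106-52245810 and *Hoxa13* chr6:52257694-52260880, all on the minus strand. *Hoxa11os* spans chr6:52244393-52249799 on the plus strand and shares 800 exonic bp with *Hoxa11*, which is 35.0% of the exonic length of *Hoxa11*. The embryonic libraries were stranded, but the strand setting of their counting is not given in the sources used here, so the values of *Hoxa11* and *Hoxa11os* are uncertain against each other. The 250 bases before the RefSeq starts are printed below because the peaks described later lie on or beside them. They are from RefSeq on GRCm38.p6, written 5' to 3' on the minus strand, with each CG dinucleotide in capitals. CG-dense promoters are, as background, where PRC2 is often found.
Hoxa9, chr6:52227371-52227620: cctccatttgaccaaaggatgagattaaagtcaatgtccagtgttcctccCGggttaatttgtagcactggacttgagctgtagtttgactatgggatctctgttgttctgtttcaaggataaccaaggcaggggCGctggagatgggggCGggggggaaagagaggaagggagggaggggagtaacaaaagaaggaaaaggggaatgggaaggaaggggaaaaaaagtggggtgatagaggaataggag
Hoxa10, chr6:52240855-52241104: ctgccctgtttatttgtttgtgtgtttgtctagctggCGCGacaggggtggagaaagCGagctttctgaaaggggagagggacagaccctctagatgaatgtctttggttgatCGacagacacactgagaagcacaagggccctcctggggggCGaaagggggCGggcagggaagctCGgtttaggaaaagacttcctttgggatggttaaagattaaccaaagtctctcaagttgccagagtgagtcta
Hoxa10 inner start, chr6:52234940-52235189: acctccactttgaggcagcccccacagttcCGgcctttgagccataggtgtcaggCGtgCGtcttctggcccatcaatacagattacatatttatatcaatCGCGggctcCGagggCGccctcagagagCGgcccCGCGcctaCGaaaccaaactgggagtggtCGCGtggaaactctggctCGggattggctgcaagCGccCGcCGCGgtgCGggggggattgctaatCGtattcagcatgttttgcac
Hoxa11, chr6:52245811-52246060: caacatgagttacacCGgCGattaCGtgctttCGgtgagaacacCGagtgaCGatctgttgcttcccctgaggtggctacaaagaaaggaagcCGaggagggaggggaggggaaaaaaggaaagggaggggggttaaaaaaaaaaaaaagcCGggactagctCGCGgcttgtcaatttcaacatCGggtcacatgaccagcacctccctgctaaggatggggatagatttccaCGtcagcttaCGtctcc
Hoxa13, chr6:52260881-52261130: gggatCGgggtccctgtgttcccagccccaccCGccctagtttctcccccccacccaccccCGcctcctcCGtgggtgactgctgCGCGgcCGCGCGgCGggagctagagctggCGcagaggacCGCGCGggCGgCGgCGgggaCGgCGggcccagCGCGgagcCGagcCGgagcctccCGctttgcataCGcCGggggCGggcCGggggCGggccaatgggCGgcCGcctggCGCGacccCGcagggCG

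All 5 genes matched the RefSeq promoter table. CG reads the same on both strands. It stood 3 times before *Hoxa9*, 7 and 20 times before the outer and inner starts of *Hoxa10*, 13 times before *Hoxa11* and 35 times before *Hoxa13*, and the median over all 32851 promoters was 6. The share of all promoters with at least as many was 71.0% for *Hoxa9*, 46.3% and 17.9% for the outer and inner starts of *Hoxa10*, 31.5% for *Hoxa11* and 2.97% for *Hoxa13*. The genes range from CG-poor to CG-rich starts. *Hoxa11os* also had 35 CG before its RefSeq start, inside its own deposited exons and within the *Hoxa11* model, and these bases are not printed.

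The embryonic libraries each held 30236159 to 39606157 gene counts and the adult libraries 11404712 to 15903642. Levels are given as CPM, counts scaled by the TMM-adjusted library total, and as TPM, scaled by exonic length too, where genes are compared. *Eed* had 1193 to 1627 counts in the control and 270 to 427 in the KO embryonic libraries, and was called lower in both organs (adjusted p = 0.0017 in the stomach and 0.0046 in the intestine, edgeR). In the adult cells *Eed* had 406 and 477 counts in the controls and 256 and 324 in the KO, and was not called (adjusted p = 0.32, edgeR). None of the 7 mesenchyme markers was below 1 CPM in any group. The 4 leukocyte markers measured, each under 1 CPM, summed to 0.464 to 0.942 CPM in the control and 1.19 to 2.74 CPM in the KO embryonic libraries. The 5 endothelial markers summed to 14.4 to 15.2 CPM in the control and 23.7 to 43.8 CPM in the KO stomach, and to 14.9 to 19.1 CPM and 43.3 to 44.2 CPM in the intestine. The 5 smooth muscle markers summed to 2716 to 2824 CPM in the control and 1721 to 1971 CPM in the KO stomach. In the intestine they summed to 2649 to 3883 CPM in the control and 3086 to 5284 CPM in the KO, with overlap. The part of these in the KO differences below was not tested. Control embryonic libraries held *Xist* and Y-linked *Ddx3y* together, while replicate 1 of both KO organs had *Ddx3y* with at most 3 counts of *Xist* and replicate 2 had *Xist* with at most 2 counts of *Ddx3y*.

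Control intestine and control stomach were compared to ask which genes mark each organ. The posterior HoxA genes were transcribed in the intestine and, except for *Hoxa9*, were not detected in the stomach. All 5 were called higher in the intestine, beside 1.68% of the 16218 genes tested. A call needed a log2 fold change beyond 1 in either direction with an adjusted p below 0.05, by the quasi-likelihood F-test of edgeR over all 8 embryonic libraries.

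*Hoxa9*, the most anterior of them, was at 6.41 and 6.29 CPM in the control intestine and at 1.07 and 1.25 CPM in the control stomach. Its groups did not overlap, and the stomach level rested on 37 and 49 counts. The share of all genes whose groups separate in this way was not computed, here and below. The log2 fold change was 2.44 ± 0.27 (SE, n = 2 per group, adjusted p = 0.0019, edgeR).

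*Hoxa10* was at 27.6 and 24.2 CPM in the control intestine and had no count in either control stomach library. It was at least 639-fold higher in the intestine, with 3 counts over both stomach libraries as the limit that a count of 0 allows (adjusted p = 0.00035, edgeR). That limit is 0.0407 CPM and covers counting error only.

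*Hoxa11* was at 13.3 and 12.9 CPM and its antisense gene *Hoxa11os* at 4.21 and 4.11 CPM in the control intestine. Neither had a count in the control stomach. *Hoxa11* was at least 322-fold higher (adjusted p = 0.00023, edgeR) and *Hoxa11os* at least 102-fold higher (adjusted p = 0.001, edgeR).

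*Hoxa13*, the most posterior gene, was at 5.51 and 8.21 CPM in the control intestine and also had no count in the control stomach. It was at least 166-fold higher (adjusted p = 0.00057, edgeR). In bulk cells, fewer cells that express a gene and less RNA per cell cannot be told apart, here and below.

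**Figure D1:**
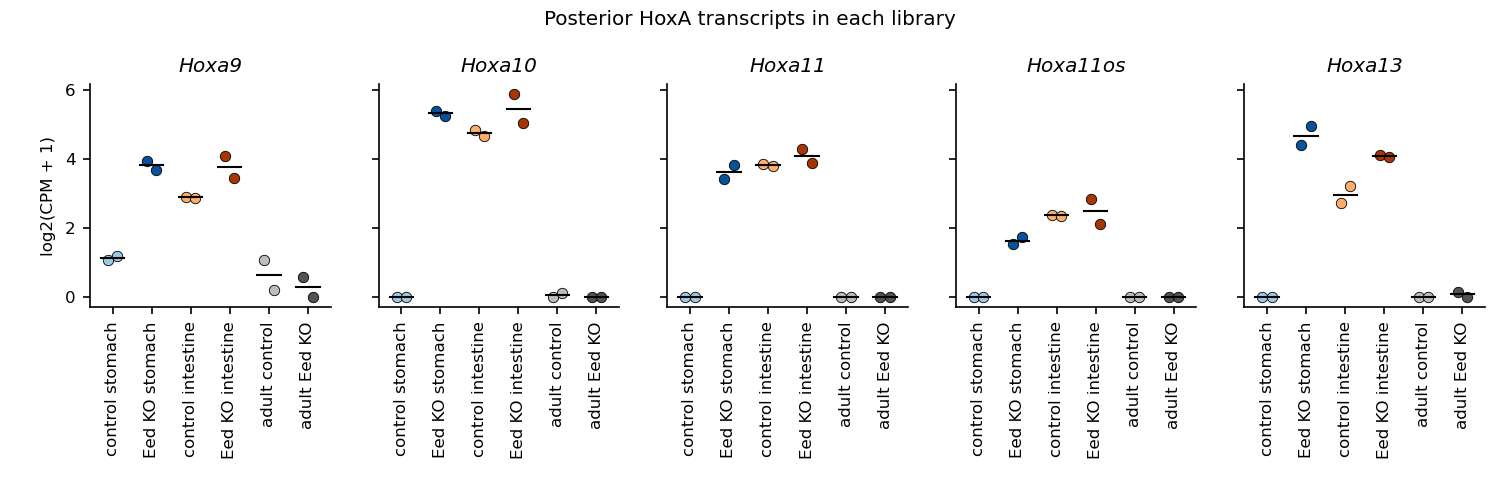
Level of each posterior HoxA gene as log2(CPM + 1) on the y axis in each of the 12 RNA libraries, by group on the x axis. Points are libraries and lines are the means of 2. *Hoxa10*, *Hoxa11*, *Hoxa11os* and *Hoxa13* are at 0 in both control stomach libraries and above it in every KO stomach and every embryonic intestine library. In the adult libraries these genes sit at or near 0, while *Hoxa9* reaches 1.10 CPM in 1 control library.

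*Eed* KO and control stomach were then compared to ask which genes change without PRC2. All 5 posterior HoxA genes were higher in the KO stomach, beside 4.84% of the genes tested. These values share the control stomach libraries with the comparison above.

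*Hoxa9* was at 14.4 and 11.8 CPM in the KO stomach against 1.07 and 1.25 CPM in the control, with no overlap. Its log2 fold change was 3.49 ± 0.27 (SE, n = 2 per group, adjusted p = 0.00067, edgeR).

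*Hoxa10* was at 40.6 and 36.9 CPM and *Hoxa13* at 20.1 and 29.6 CPM in the KO stomach. Both had no count in the control stomach, so every KO library was above every control. *Hoxa10* was at least 953-fold higher (adjusted p = 0.00036, edgeR) and *Hoxa13* at least 609-fold higher (adjusted p = 0.00028, edgeR).

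*Hoxa11* was at 9.66 and 13.1 CPM and *Hoxa11os* at 1.88 and 2.30 CPM in the KO stomach, again against no count in the control. *Hoxa11* was at least 280-fold higher (adjusted p = 0.00026, edgeR) and *Hoxa11os* at least 51.3-fold higher (adjusted p = 0.0024, edgeR). All 5 calls in the stomach were made under each of the 11 alternatives run.

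In the intestine, where the genes were already transcribed, the group means of all 5 lay above the control but none of the 5 was called (edgeR), beside 2.38% of the genes tested that were called higher. Unadjusted p was under 0.05 for 3 of them, *Hoxa9*, *Hoxa10* and *Hoxa13* (edgeR). The share of all genes under that p was not computed, so this count cannot be set against it. DESeq2 called 2, *Hoxa9* and *Hoxa13*, beside 628 of 16218 genes it called higher. *Hoxa9* was at 15.8 and 9.93 CPM in the KO against 6.41 and 6.29 CPM in the control intestine. Its log2 fold change was 1.02 with a 95% interval of 0.47 to 1.56 (adjusted p = 0.069, edgeR). *Hoxa10* was at 57.3 and 31.5 CPM against 27.6 and 24.2 CPM, with a log2 fold change of 0.78 and an interval of 0.14 to 1.42 (adjusted p = 0.24, edgeR). In both genes replicate 1 of the KO intestine was well above replicate 2.

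*Hoxa13* was at 16.3 and 15.6 CPM in the KO against 5.51 and 8.21 CPM in the control intestine. Its log2 fold change was 1.22 with an interval of 0.60 to 1.84 (adjusted p = 0.065, edgeR). *Hoxa11* at 18.4 and 13.6 CPM and *Hoxa11os* at 6.15 and 3.31 CPM were nearest to their controls, with log2 fold changes of 0.29 (interval -0.22 to 0.80) and 0.19 (interval -0.58 to 0.95).

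The estimates and calls in the intestine depend on the library and the setting. Without replicate 2 of the KO intestine, the log2 fold change was 1.31 for *Hoxa9* and 1.14 for *Hoxa10*, against 1.02 and 0.78 with all libraries (edgeR). The part of embryo sex, which separates the KO replicates as given above, was not tested. With scaling by spike-in counts, which were 4871 to 14932 in the KO and 26227 to 37590 in the control libraries, all 5 were called, but the median of all genes moved by 1.85 (log2), and relative to that shift *Hoxa9* stood at 0.87, *Hoxa10* at 0.58, *Hoxa11* at 0.20, *Hoxa11os* at -0.02 and *Hoxa13* at 1.23.

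Whether the organ difference itself changed in the KO was tested with the interaction contrast, the control difference minus the KO difference, at an adjusted p under 0.2. All 5 genes were called with a larger intestine-to-stomach difference in the control, beside 0.271% of the genes tested. The adjusted p was 0.0081 for *Hoxa11*, 0.0099 for *Hoxa10*, 0.0099 for *Hoxa13*, 0.053 for *Hoxa11os* and 0.069 for *Hoxa9* (edgeR). The contrast uses the libraries of the comparisons above and is not separate evidence. The call of *Hoxa9* was lost without any single control library, at an adjusted p of 0.22 without replicate 1 and 0.24 without replicate 2 of the control intestine and 0.23 without either replicate of the control stomach, and under spike-in scaling (0.93).

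Within the KO, none of the 5 genes was called between intestine and stomach (edgeR), beside 1.46% of genes called higher and 2.94% called lower in the intestine. Unadjusted p was under 0.05 for 2 of them, *Hoxa11os* and *Hoxa13* (edgeR), and here too the share of all genes was not computed. DESeq2 called 1, *Hoxa11os*, beside 288 of 16218 genes it called higher. *Hoxa9* differed by -0.03 (log2, intestine minus stomach) with a 95% interval of -0.56 to 0.50, and *Hoxa10* by 0.19 with an interval of -0.44 to 0.83. *Hoxa11os* differed by 1.18 (interval 0.39 to 1.97, adjusted p = 0.10, edgeR) and *Hoxa13* by -0.64 (interval -1.23 to -0.04, adjusted p = 0.22, edgeR). Without replicate 2 of the KO intestine the log2 fold change of *Hoxa11os* was 1.56. *Hoxa11os* was called with no filter on low counts (1.18, adjusted p = 0.016, edgeR), beside 322 of 25364 genes called higher. It was also called with the replicate number as a block within each genotype (1.13, adjusted p = 0.043, edgeR), beside 357 of 16218 genes called higher.

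By mean TPM, the level per exonic length, the order began with *Hoxa10*, *Hoxa11* and *Hoxa13* in both intestine groups. In the KO stomach *Hoxa13* stood above *Hoxa11*. In the control intestine *Hoxa10* was highest at 23.7 ± 1.68 TPM (SD, n = 2, as for the other TPM), followed by *Hoxa11* at 17.1 ± 0.0357, *Hoxa13* at 8.34 ± 2.5, *Hoxa11os* at 4.05 ± 0.0151 and *Hoxa9* at 3.41 ± 0.0329. In the KO stomach *Hoxa10* was at 38.0 ± 1.45 TPM and *Hoxa13* at 32.3 ± 9.63, which do not differ beyond their spread, and *Hoxa11* at 16.0 ± 3.90, *Hoxa9* at 7.51 ± 0.847 and *Hoxa11os* at 2.19 ± 0.376 came below. In the KO intestine *Hoxa10* was at 40.9 ± 15.4 TPM, *Hoxa11* at 21.1 ± 3.67 and *Hoxa13* at 19.5 ± 0.0927, of which the last 2 do not differ beyond their spread, with *Hoxa9* at 6.94 ± 1.99 and *Hoxa11os* at 4.63 ± 1.81 below and also within their spread.

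The share of *Hoxa13* in the summed TPM of the 5 genes was 11.7% and 17.7% in the control intestine, 17.8% and 25.5% in the KO intestine and 29.0% and 37.5% in the KO stomach. *Hoxa11* held 30.6% and 30.0% in the control intestine, 21.7% and 24.1% in the KO intestine and 15.1% and 18.0% in the KO stomach. Each KO stomach library had a higher *Hoxa13* share and a lower *Hoxa11* share than every intestine library, and this was not tested. *Hoxa10* held between 35.5% and 47.4% in these 6 libraries, with overlapping groups.

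**Figure D2:**
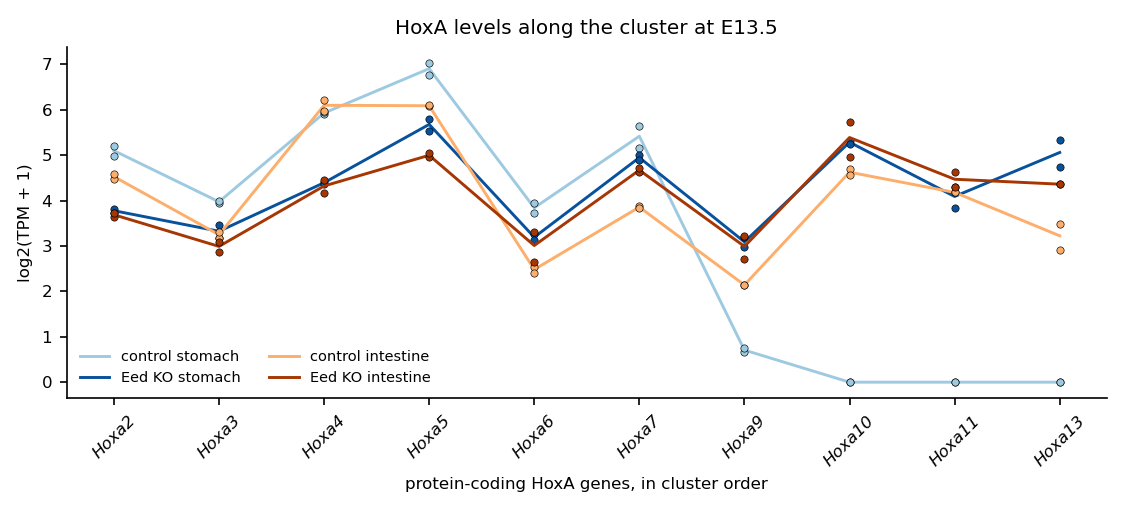
Level of the protein-coding HoxA genes from *Hoxa2* to *Hoxa13* as log2(TPM + 1) on the y axis, in cluster order on the x axis, for the 4 embryonic groups. Points are libraries and lines join the means of 2. The control stomach falls to 0 from *Hoxa10* on, and the KO stomach stays with the intestine across the posterior genes.

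The 6 anterior and central HoxA genes from *Hoxa2* to *Hoxa7* lie on the 3' side of the same cluster. None of them was called higher in any embryonic comparison. In the KO stomach 3 were lower, *Hoxa2*, *Hoxa4* and *Hoxa5*, beside 0.808% of the genes tested, and the median log2 fold change of the 6 was -1.05 against 0.00 over all genes. *Hoxa5*, a gene known for lung and gut mesenchyme development, was at 73.4 ± 9.31 CPM (SD, n = 2) in the control and 29.4 ± 4.60 CPM in the KO stomach. In the KO intestine 2 were lower, *Hoxa4* and *Hoxa5*, beside 0.228% of the genes tested. The 6 did not all fall there. *Hoxa7* rose by 0.84 (log2, 95% interval 0.46 to 1.22, adjusted p = 0.042, edgeR), short of the fold threshold. *Hoxa6* stood at 0.59 with an interval of -0.08 to 1.25. In the control intestine *Hoxa6* and *Hoxa7* were lower than in the control stomach, beside 3.39% of the genes tested.

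The 12 paralogs of groups 9 to 13 in the HoxB, HoxC and HoxD clusters were counted in the same way. In the control organs 8 were called higher and 1, *Hoxb9*, lower in the intestine, beside 1.68% and 3.39% of the genes tested. All 12 were higher in the KO stomach, beside 4.84% of the genes tested. In the KO intestine 5 were called higher, *Hoxb9*, *Hoxb13*, *Hoxc9*, *Hoxc11* and *Hoxc13*, beside 2.38% of the genes tested. *Hoxb13* had no count in either control organ and was at 7.67 ± 1.66 CPM (SD, n = 2) in the KO intestine and 16.1 ± 2.23 CPM in the KO stomach. *Hoxd13*, the HoxD paralog of *Hoxa13*, was at 0.0400 ± 0.0156 CPM in the control and 29.1 ± 4.71 CPM in the KO stomach.

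Next to the cluster, 6 of 7 listed neighbours were in the tables. *Hottip*, a long noncoding RNA made beside *Hoxa13*, had no count in the controls, 44 counts over both KO stomach and 29 over both KO intestine libraries, and was called higher in both organs (adjusted p = 0.017 and 0.050, edgeR). *Evx1*, the homeobox gene beyond it, had 1 count over the libraries of each control organ, 481 counts in the KO stomach and 76 in the KO intestine, and was also called in both (adjusted p = 0.00066 and 0.011, edgeR). *Hoxaas2*, an antisense RNA among the more anterior genes, fell in both organs. None of the 6 Hox cofactors of the Meis and Pbx families was called in any comparison, and of 11 PRC2 subunits only *Eed* was called in the KO comparisons of the embryo.

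Genes outside the set whose pattern was most like a member were found by the Pearson correlation of log2(CPM + 0.5) over the 8 embryonic libraries, among 13381 genes with a mean of at least 1 CPM. *Hoxa13* was most like *Hoxd13* (r = 0.997), and the next were *RP23-329P9.12* (r = 0.992) and *Zfp385b* (r = 0.988). *Hoxa9* was most like *Hnmt* (r = 0.985), *Hoxa10* like *Tunar* (r = 0.974), *Hoxa11* like *Npr3* (r = 0.982) and *Hoxa11os* like *Rgcc* (r = 0.992). Close behind came *Hoxd13* for *Hoxa9* (r = 0.974), *Hoxc9* for *Hoxa10* (r = 0.973), *Hoxd9* for *Hoxa11* (r = 0.977) and *Hoxc8* for *Hoxa11os* (r = 0.988). The r does not weigh the size of a change. Group means ran from 1.15 to 2.64 CPM for *Hnmt*, 0.40 to 1.33 for *Tunar*, 37.5 to 283 for *Npr3* and 0.99 to 4.22 for *Rgcc*. Within the set r ran from 0.853, for *Hoxa11os* and *Hoxa13*, to 0.991, for *Hoxa10* and *Hoxa11*. These values describe 8 libraries in 4 groups that share organ and genotype.

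Accessible chromatin was given as 1 peak list per condition, called on pooled replicates, so differences between lists have no replicate check, and the read depth behind them is unknown. A peak carries a fold enrichment over the MACS2 background and a -log10 q, and q also moves with depth. A peak within 1000 bp of the outermost gene start was present for all 5 genes in the control intestine, KO intestine and KO stomach, beside 88.2%, 89.3% and 89.3% of the tested autosomal genes. In the control stomach 4 of 5 had a peak, beside 88.6% of genes. *Hoxa10*, *Hoxa11* and *Hoxa13*, which had no RNA count in the control stomach, thus had promoter peaks there. *Hoxa11os* had none there within 1000 bp of its deposited start, but the *Hoxa11* peak, with a fold enrichment of 2.90, lay within 1000 bp of its RefSeq start, 850 bp away. The RefSeq start was looked at after the data were seen.

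The *Hoxa10* promoter held the strongest peak over these genes in every list. Its fold enrichment was 5.12 in the control stomach, 4.39 in the KO stomach, 4.93 in the control intestine and 4.62 in the KO intestine, and its -log10 q was 19.1, 29.0, 26.3 and 27.8 in that order. The groups are close in fold enrichment. The peak covered all 250 printed bases before the outer *Hoxa10* start in 3 lists, and 3 of them in the KO stomach. There it was 788 bp wide, against 1466 bp in the control stomach. Over the whole *Hoxa10* gene, peaks covered 17.3% in the control stomach and 35.9% in the KO stomach. In the intestine they covered 26.0% in the control and 22.0% in the KO. The paper names *Hoxa10*, shown in the stomach, as a gene whose accessibility increased when PRC2 was lost. The pooled lists hold no read signal for each replicate, so that increase was not tested here.

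The printed bases before the inner *Hoxa10* start were covered for 202 bp in the control intestine, 143 bp in the KO intestine, 132 bp in the KO stomach and 0 bp in the control stomach. The control stomach list was the exception among the 4 here. At *Hoxa9* the RefSeq start lies 3719 bp from the outermost deposited start, a choice of start made after the data were seen. Within 1000 bp of it a peak was listed at a fold enrichment of 2.35 in the control intestine, 2.42 in the KO intestine and 2.81 in the KO stomach, and none in the control stomach, whose nearest peak, of 386 bp with a fold enrichment of 2.02, ended at chr6:52226218.

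The *Hoxa11* promoter peak had a fold enrichment of 2.90 in the control and 2.74 in the KO stomach, and of 2.46 in the control and 2.54 in the KO intestine. It was wider in the KO, at 3056 bp against 1446 bp in the stomach and 2720 bp against 1708 bp in the intestine. Among 13734 genes with a promoter peak in both stomach lists, 2.89% had a ratio of widths at or above the 2.11 of *Hoxa11*, and the median ratio was 1.03. In the intestine 6.30% of 13693 genes had a ratio at or above its 1.59. The other promoter peaks of the stomach were narrower in the KO, with a ratio of 0.54 for *Hoxa10*, 0.66 for *Hoxa13* and 0.91 for *Hoxa9*, and 99.0%, 98.1% and 91.0% of genes at or above them. In the intestine the ratio was 1.22 for *Hoxa10* and 1.09 for *Hoxa13*, with 15.6% and 28.6% of genes at or above, and 0.57 for *Hoxa9*, with 98.6%, where the strongest peak of the window was a different one in each list. The added width ran into the gene and over the start of *Hoxa11os*, from chr6:52245515 in the control to chr6:52243829 in the KO stomach, so both genes share this peak.

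At *Hoxa13* the promoter peak had a fold enrichment of 2.61 in the control stomach, 2.76 in the KO stomach, 3.31 in the control intestine and 2.74 in the KO intestine. It covered all the printed bases before the start in each list, and was widest, at 4086 bp, in the control stomach. By fold enrichment the *Hoxa9*, *Hoxa11* and *Hoxa13* peaks were among the weakest of all promoter peaks, with 0.516% to 5.14% of promoter peaks at or below them, and the *Hoxa10* peak had 18.5% to 26.2% at or below it. The median promoter peak had a fold enrichment of 6.45 to 6.92 in the 4 lists.

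**Figure D3:**
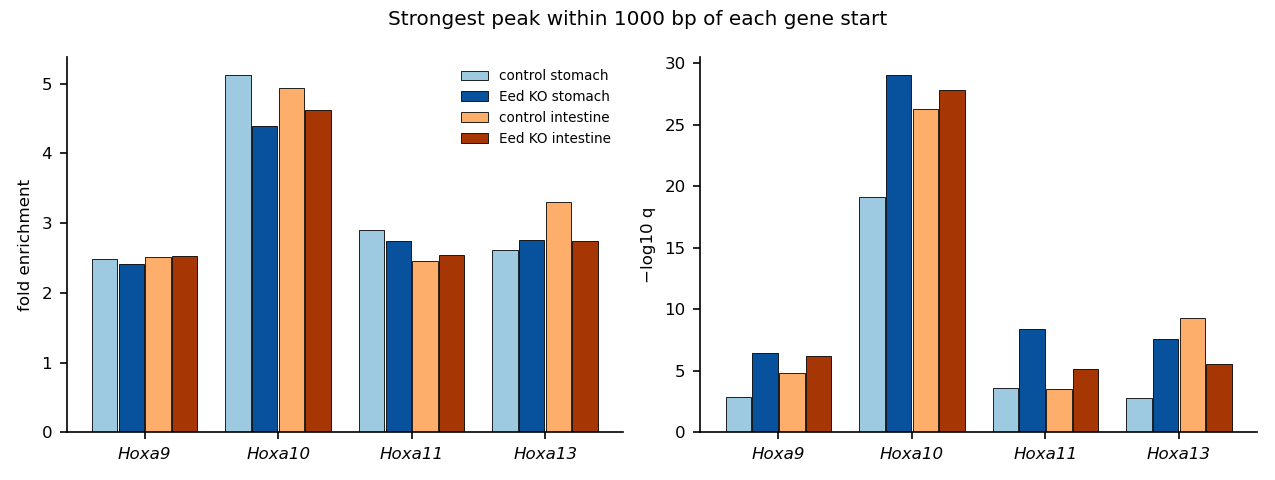
Fold enrichment (left) and -log10 q (right) of the strongest peak within 1000 bp of the outermost start of *Hoxa9*, *Hoxa10*, *Hoxa11* and *Hoxa13*, with 1 bar for each of the 4 peak lists. *Hoxa10* stands highest in every list, and -log10 q is lower in the control stomach than in the KO stomach for each gene. Bars have no error because replicates were pooled.

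From the start of the *Hoxa9* model to the end of the *Hoxa13* model is 37781 bp. Peaks covered 27.5% of it in the control stomach, 38.7% in the KO stomach, 32.6% in the control intestine and 34.9% in the KO intestine, in 9, 8, 9 and 9 peaks. The control stomach had the least covered length and the KO stomach the most. Over this span the lowest -log10 q was 1.54 in the control stomach, where 2 peaks lay under 2, and 5.41 in the KO stomach. Of all peaks in each list, 20.001% in the control stomach and 14.59% in the KO stomach lay under 2. The median width of all peaks was 520 bp in the control stomach and 562 bp in the KO stomach. For the control and KO intestine it was 536 bp and 539 bp, so the lists rank as they do by covered share. The part of these list-wide differences in the values of this span was not tested.

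**Figure D4:**
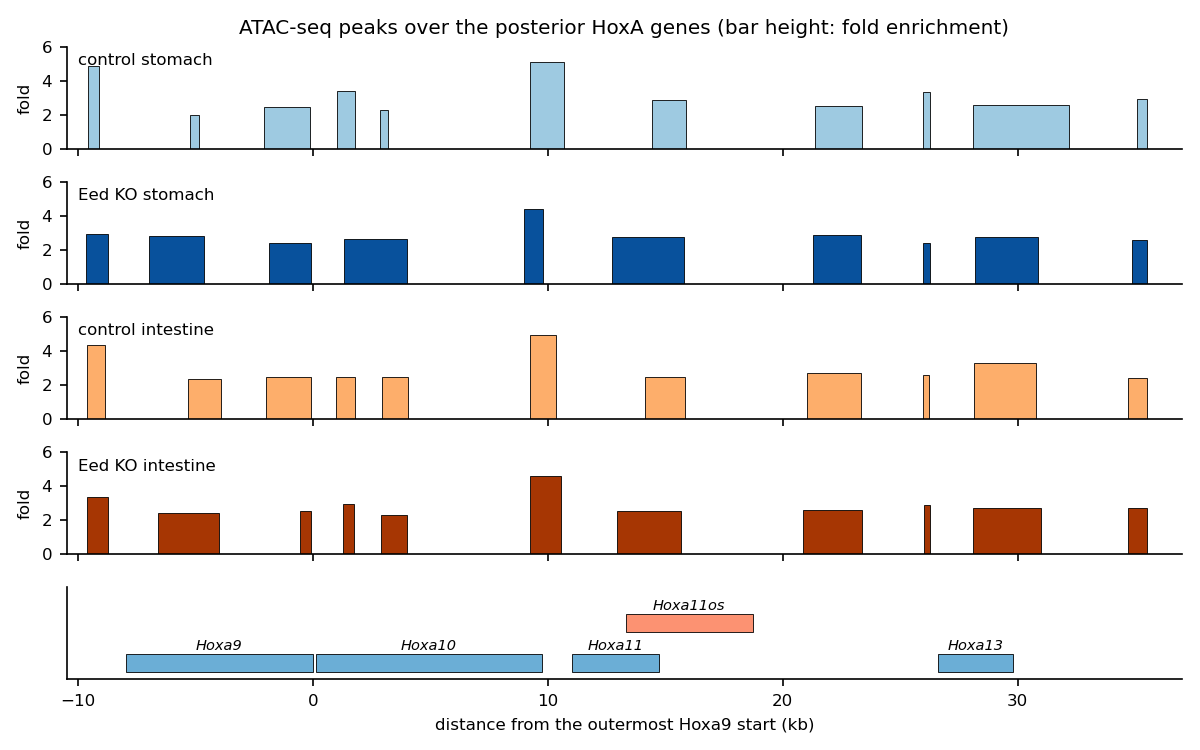
ATAC-seq peaks over the posterior HoxA genes in the 4 lists, with distance from the outermost *Hoxa9* start in kb on the x axis and fold enrichment as bar height, and gene models below (blue minus strand, red plus strand). The peak at the *Hoxa10* start is the highest between *Hoxa9* and *Hoxa13* in each list, and the peak at *Hoxa11* is wider in both KO lists.

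In the sorted GFP+ cells of the adult intestine the posterior HoxA genes other than *Hoxa9* were at or near zero. *Hoxa9* had 15 and 2 counts in the controls (1.10 and 0.14 CPM) and 5 and 0 in the KO. *Hoxa10* had 1 count in 1 control library, *Hoxa13* had 1 count in 1 KO library, and *Hoxa11* and *Hoxa11os* had none in any of the 4. A count of 0 allows 0.189 to 0.263 CPM in these libraries.

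Since none of the 5 passed the filter, no test was made, beside 12.3% of 15039 genes called higher and 7.23% called lower in the KO. Without the filter 3 were measured, and edgeR called 0 of them, with 0 at an unadjusted p under 0.05, while DESeq2 was run on the filtered genes only. The 4 leukocyte markers measured summed to 2236 and 2976 CPM in the controls and to between 80744 and 93626 CPM in the KO, and the mesenchyme markers to between 11384 and 11901 and between 3480 and 4983 CPM, and the part of this in the adult values was not tested. Adult libraries were made with another kit from small intestine, so the embryonic and adult values stand side by side without a comparison.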

How the data were processed

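RNA was measured in 12 libraries and chromatin accessibility in 8 samples. For RNA-seq the authors used Trimmomatic for trimming, STAR for alignment to mm10 and featureCounts with GENCODE vM4 for the gene counts, which were deposited without normalization. For ATAC-seq the authors aligned the reads with BWA-mem, pooled replicates and called peaks with MACS2 at a stated q of 0.01. The deposited lists give a fold enrichment, which is a ratio to the MACS2 background, and a -log10 q, and peaks with a -log10 q between 1 and 2 are among them. Versions are those of the submitters' processing notes: Trimmomatic 0.32, STAR 2.5.1b, BWA 0.7.8 and MACS2 2.1.2.

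Counts were tested with edgeR 4.0.16 in R 4.3.3 (TMM, filterByExpr, quasi-likelihood F-test, Benjamini-Hochberg adjustment over all genes tested), in a fit of 4 embryonic groups and another of 2 adult groups. Groups came from the labels. The number of embryos behind each library is not given in the sources used here, and p-values measure the spread between these libraries. Self-tests on simulated counts were run with 200 changed genes. Alternatives were DESeq2 1.42.0, other size factors, spike-in scaling, 1 RUVg spike-in factor, no filter, replicate blocks, only the groups compared and each library left out. Promoters were 1000 bp on each side of the outermost gene start, with an overlap of at least 1 bp, and tables were made with Python 3.11.15 and pandas 2.3.3. TPM used the exonic lengths in the adult files. Named genes are the 5 members, lists of related genes, and for each member the non-member genes with the most similar pattern. A gene of these lists is not reported here. The members and lists were chosen with earlier results of these data known.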

Additional observations from a re-analysis of the deposited data

Results flagged for a closer look

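For each posterior HoxA gene the difference between intestine and stomach was not the same in control and *Eed* KO embryos, by the interaction contrast of edgeR at an adjusted p under 0.2. The adjusted p was 0.069 for *Hoxa9*, 0.0099 for *Hoxa10*, 0.0081 for *Hoxa11*, 0.053 for *Hoxa11os* and 0.0099 for *Hoxa13*. The contrast was larger in the control for all 5, and in *Hoxa10*, *Hoxa11*, *Hoxa11os* and *Hoxa13* the control stomach libraries were at 0. Groups held 2 libraries each, so no test for a library far from the others was made.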

How the results depend on the processing

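The 5 genes called in the control organs stayed at 5 under every alternative except spike-in scaling, where *Hoxa9* was not called (adjusted p = 0.089, edgeR). The 5 called in the KO stomach stayed at 5 under all, but spike-in scaling called 15419 of 16218 genes higher there. In the KO intestine, where edgeR called 0, DESeq2 called 2, no filter on low counts 2, 1 RUVg factor 2 and spike-in scaling 5. The calls there also moved when a library was left out. Of 16218 genes, 386 were called higher in the main fit, 628 with DESeq2, 241 with 1 RUVg factor and 13664 with spike-in scaling. With no filter 734 of 25364 were called higher. The 5 calls under spike-in scaling are thus near what most genes showed. Between the KO organs the count rose from 0 to 1 with DESeq2 and with no filter, and ran from 0 to 1 with a library left out. For the interaction the count ran from 4 to 5 with a library left out and was 4 under spike-in scaling. Of 290 alternatives for single embryonic genes, 266 left the call as it was, 18 gained it, 6 lost it and 0 reversed a called direction. With the replicate number as a block the KO intestine had 1 called gene (*Hoxa13*, adjusted p = 0.018, edgeR), beside 575 of 16218 genes called higher. With that number as a block within each genotype, 1 was called between the KO organs (*Hoxa11os*, adjusted p = 0.043, edgeR). Beside it, 357 of 16218 genes were called higher. Neither block changed another call. Same-numbered libraries deviated together with r = 0.26 between the control organs and 0.63 between the KO organs, and by sex markers each KO number was one sex in both organs. By the methods the organs were separated for each animal, but the sources do not say which libraries share embryos, so the pairing was kept as an alternative. Spike-in scaling moved the median of all genes by 2.39 (log2) in the stomach, 1.85 in the intestine, 0.30 between the control organs and 0.53 in the interaction. With peaks of a -log10 q of at least 5, genes with a promoter peak fell to 2 in the control intestine and 1 in the control stomach. All 5 kept a promoter peak in both KO lists, where the lowest -log10 q was 5.12 in the intestine and 6.46 in the stomach. The share of all genes that keep a peak at this cutoff was not computed, and q moves with depth, so a control to KO difference cannot be read from it. In the adult comparison no member passed the filter, and no alternative called one: 3 were measured without the filter, and 1 in 3 of the 4 fits that left out a library. At the depth of the adult libraries a count of 0 allows up to 0.189 to 0.263 CPM.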
